A study of Homo sapiens with 6 samples.

Results

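The 7 genes of acid handling followed here were measured in MDA-MB-231 cells depleted of UBE3D, a gene whose product is named as an E3 ubiquitin ligase: the carbonic anhydrase genes CA2, CA9 and CA12, the lactate transporter genes SLC16A1 and SLC16A3, their partner BSG, and the bicarbonate transporter gene SLC4A7. The genes were chosen by name, with values from this comparison already known, and all 7 have a row among the 20115 genes of the authors' deposited table. The 2 groups are 3 libraries of MDA-MB-231 cells in which doxycycline induced short hairpin RNAs against UBE3D, integrated by lentivirus, and 3 libraries of control MDA-MB-231 cells. MDA-MB-231 is an established triple-negative breast cancer line, and both groups were grown in DMEM with 10% fetal bovine serum. The labels do not name the control construct or say whether the control cells received doxycycline. Each sample is labelled as pooled, and separate cultures are not mentioned, so p-values reflect only the spread among these libraries, which may be technical. The design text asks which genes and readthrough transcripts change on depletion.

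Cells that run on glycolysis make lactate and protons and must export both. Monocarboxylate transporters of the SLC16 family carry lactate out together with a proton, and SLC16A1 and SLC16A3 need the membrane glycoprotein basigin, encoded by BSG, to reach the cell surface. Carbonic anhydrases interconvert carbon dioxide and bicarbonate. CA2 works in the cytosol, while CA9 and CA12 are membrane enzymes whose active sites face the outside of the cell, where they acidify the surroundings as bicarbonate is taken back up by carriers such as SLC4A7. CA9 and SLC16A3 are well-known targets of the hypoxia-inducible factors (HIF), and CA9 is used as a tissue marker of hypoxia in tumours.

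In the authors' deposited table, 3 of the 7 genes were lower in the knockdown at an adjusted p under 0.05, namely CA12, SLC16A1 and CA9, and none was higher. Over all genes of the authors' deposited table, 7.93% were lower and 4.62% were higher by the same rule, and since the genes were picked with these values known, nothing is read from their count. The median log2 fold change of the 7 genes was -0.26, against -0.03 over all genes of the authors' deposited table. The deposited values are log2 fold changes of knockdown over control that were shrunken toward 0, so unshrunken folds can be larger, and the deposited standard error (SE) is the measure of precision. No value per library is in the tables used here, so depth per library is unknown and whether single libraries overlap between groups cannot be shown. The plot of changes by gene shows 3 genes well below 0, SLC16A3 a little below it and the other 3 about it.

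**Figure D1:**
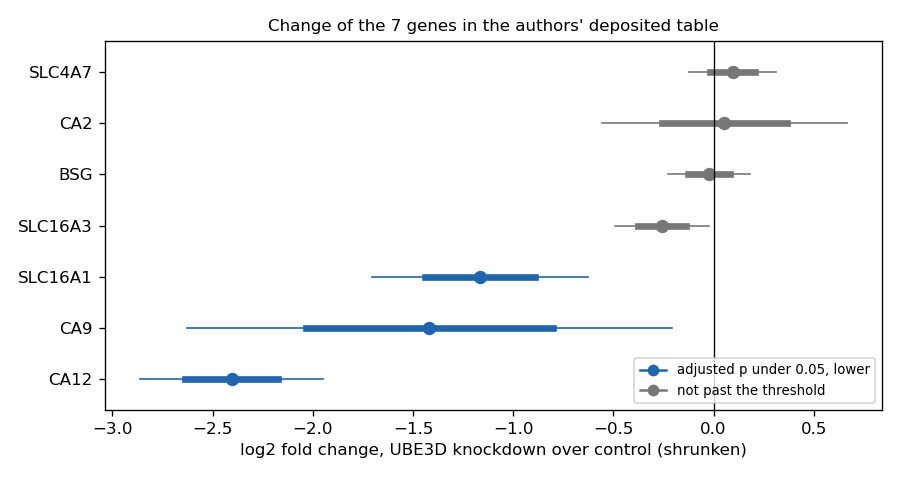
Log2 fold change of each of the 7 genes, UBE3D knockdown over control, from the authors' deposited table (3 libraries per group). Points are the shrunken estimates, thick bars 1 SE and thin bars approximate 95% intervals; CA12 (-2.41), CA9 (-1.42) and SLC16A1 (-1.17) are the genes past the adjusted p threshold of 0.05.

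CA12 had the largest change of the 7. It encodes a membrane carbonic anhydrase of breast and kidney epithelium and lies on chromosome 15 (63321378 to 63382161, minus strand, GRCh38). The authors' deposited table gives it a mean of 105 normalized counts over the 6 libraries and a log2 fold change of -2.41, or 5.30-fold lower in the knockdown (SE 0.23, adjusted p = 1.09e-24). If that fold is taken as the ratio of group means, the mean of 105 corresponds to 33.5 in knockdown cells and 177 in control cells, in normalized counts derived from the authors' deposited table. CA12 ranked 13 from the lowest among all 20115 genes of the authors' deposited table. Of the 4060 genes whose mean lies within 2-fold of its own, 6.97% were lower and 8.35% were higher in the authors' deposited table. Of the genes at a mean of 100 or more, the 5 closest to CA12 in log2 fold change were LAPTM5 (-2.41), HLA-DRA (-2.33), CAPZA2 (-2.29), SERPINE2 (-2.28) and CD109 (-2.60) in the authors' deposited table, a likeness over 1 contrast.

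CA9 was lower as well, at a smaller mean count. The authors' deposited table lists CA9 at a mean of 25.1 normalized counts, 2.67-fold lower in the knockdown, with a log2 value of -1.42 (SE 0.62, adjusted p = 0.00147). Taken as a ratio of group means, this corresponds to 13.7 normalized counts in knockdown cells and 36.5 in control cells, derived from the authors' deposited table. The approximate 95% interval runs from -2.63 to -0.21 on the log2 scale, the widest of the 7, computed from the authors' deposited table. A Wald test of the change over its SE ended the call (adjusted p = 0.239). CA9 lies on chromosome 9 (35673856 to 35681159, plus strand), where ARHGEF39 overlaps it by 2011 bases on the opposite strand. ARHGEF39 stood at -0.15 on the log2 scale (SE 0.17, adjusted p = 0.439) in the authors' deposited table. The strand setting of the counting is not stated, so reads of the overlap may be shared.

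The promoters of both membrane enzymes are shown because CA9 is the textbook HIF target of the group and CA12 changed most. Each window runs from 250 bases before to 50 bases after a RefSeq start site (GRCh38.p14), 5′ to 3′ on the gene's strand, chr9:35673678-35673977 (plus strand) for CA9 and chr15:63381797-63382096 (minus strand) for CA12. Capitals mark, on either strand, ACGTG or GCGTG, the 2 forms of the core that HIF binds, and TGACTCA, the motif of the AP-1 factors.
CA9: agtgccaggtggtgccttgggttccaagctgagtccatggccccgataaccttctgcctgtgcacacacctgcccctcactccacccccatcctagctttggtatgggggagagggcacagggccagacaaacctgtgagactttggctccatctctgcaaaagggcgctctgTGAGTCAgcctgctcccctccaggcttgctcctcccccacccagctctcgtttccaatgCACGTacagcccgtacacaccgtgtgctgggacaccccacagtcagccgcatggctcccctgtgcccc
CA12: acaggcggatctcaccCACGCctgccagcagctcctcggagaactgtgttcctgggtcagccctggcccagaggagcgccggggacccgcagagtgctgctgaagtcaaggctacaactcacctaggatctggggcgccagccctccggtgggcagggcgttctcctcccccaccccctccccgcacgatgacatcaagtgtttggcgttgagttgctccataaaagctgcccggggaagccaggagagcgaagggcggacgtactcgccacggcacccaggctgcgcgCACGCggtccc
In the CA9 window, ACGTG was found once, on the opposite strand, 18 to 14 bases before the start site, and TGACTCA once, also on the opposite strand, 77 to 71 bases before it. The CA12 window held GCGTG on the opposite strand at 2 places, from -234 to -230 and from 39 to 43, and held neither ACGTG nor TGACTCA. Of 35116 RefSeq promoter windows of the same length, 21.4% hold ACGTG, 36.5% GCGTG, 48.4% at least 1 of the pair and 4.95% TGACTCA on either strand. The motifs were chosen after the sequences were seen, and a match is no evidence of binding.

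The other 11 carbonic anhydrase genes of the list of 15 that have a row, leaving out the 3 described here, were neither lower nor higher at the threshold, with log2 fold changes from -0.29 to 0.15 and a median of -0.07 in the authors' deposited table. They include CA13, a cytosolic enzyme, with a mean of 289 (log2 fold change -0.16, SE 0.15, adjusted p = 0.377) and the mitochondrial CA5B at a mean of 130 (0.15, SE 0.14, adjusted p = 0.364), values again of the authors' deposited table. CA10, CA8 and CA11, members of the family without enzyme activity, had values of -0.29, -0.18 and -0.09 in the authors' deposited table. CA5A is not analysed here.

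The lactate transporter genes differed in level and in change. SLC16A1, which encodes the widespread transporter MCT1, lies on chromosome 1 (112911847 to 112957013, minus strand). The authors' deposited table lists it at a mean of 66.5 normalized counts, 2.24-fold lower in the knockdown, with a log2 value of -1.17 (SE 0.28, adjusted p = 1.13e-05). As a ratio of group means this corresponds to 41.0 normalized counts in knockdown cells and 92.0 in control cells, derived from the authors' deposited table. SLC16A3, which encodes MCT4, the low-affinity exporter of glycolytic cells, lies on chromosome 17 (82228397 to 82261129, plus strand) and averaged 2676 normalized counts in the authors' deposited table. Its change was -0.26 on the log2 scale (SE 0.12), 1.20-fold lower in the knockdown, and its adjusted p of 0.0513 in the authors' deposited table lay just outside the threshold. With the p-values adjusted over the 9743 genes with a mean of at least 100 alone, SLC16A3 passed (adjusted p = 0.0325). Among the 1245 genes with a mean within 2-fold of that of SLC16A3, 17.3% were lower and 3.13% were higher in the authors' deposited table. The approximate 95% intervals of SLC16A1 (-1.71 to -0.63) and SLC16A3 (-0.49 to -0.02), from the authors' deposited table, do not overlap; this is a description, as both genes were chosen with these values known.

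SLC16A1 and SLC16A3 share their loci with other genes. AKR7A2P1, a processed pseudogene, lies within SLC16A1 on the opposite strand (log2 fold change -0.25, SE 0.45, mean 11.4 in the authors' deposited table), and SLC16A1-AS1 overlaps its start by 599 bases (0.02, SE 0.29, mean 10.3). CSNK1D, a casein kinase gene, overlaps SLC16A3 by 22107 bases on the opposite strand and stood at -0.06 in log2 fold change (SE 0.09, adjusted p = 0.685, mean 1119) in the authors' deposited table. No readthrough region carries the name of a member alone. One of the 2014 downstream-of-gene (DoG) regions, stretches of transcription past a gene's end, has the merged name MIR6787 and SLC16A3, which the selection by exact name leaves out. In the authors' deposited table of DoG regions it was lower by a log2 value of -0.24 (SE 0.10, adjusted p = 0.0334, mean 1914), where 16.1% of regions were lower by the same rule. This value and that of the gene (-0.26) come from the same libraries, and which of the named genes the transcripts start from was not tested.

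SLC16A3 is shown in its RefSeq window with the most ACGTG matches, chr17:82228792-82229091 (plus strand, GRCh38.p14), and BSG in its own, chr19:572346-572645 (plus strand), to set a gene past no threshold beside it, with the same motifs in capitals. CA9 and CA12 have 1 window each, whereas SLC16A3 has 5, with 0, 2, 0, 3 and 1 matches to either form of the HIF core, BSG has 2, with 0 and 6, and SLC4A7 has 2, with 3 and 0.
SLC16A3: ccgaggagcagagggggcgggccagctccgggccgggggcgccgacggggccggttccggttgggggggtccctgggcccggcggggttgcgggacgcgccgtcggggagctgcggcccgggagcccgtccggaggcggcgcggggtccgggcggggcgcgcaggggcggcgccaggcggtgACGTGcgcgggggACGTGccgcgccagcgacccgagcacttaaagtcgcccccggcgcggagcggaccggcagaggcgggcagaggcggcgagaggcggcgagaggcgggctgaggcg
BSG: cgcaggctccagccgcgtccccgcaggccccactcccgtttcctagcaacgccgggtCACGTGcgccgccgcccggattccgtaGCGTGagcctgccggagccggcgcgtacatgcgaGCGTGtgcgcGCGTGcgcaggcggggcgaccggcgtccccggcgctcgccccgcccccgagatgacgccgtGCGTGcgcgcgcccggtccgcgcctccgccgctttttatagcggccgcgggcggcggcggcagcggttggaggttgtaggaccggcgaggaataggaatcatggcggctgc
The SLC16A3 window held ACGTG at 2 places on the gene's strand, from -68 to -64 and from -55 to -51. The BSG window held ACGTG on both strands of a single CACGTG, the E-box form that 7.26% of all windows hold, and GCGTG at 4 places. The first SLC4A7 window (minus strand) held GCGTG at 3 places and no ACGTG. Matches thus occurred in genes that were lower and in genes that were not, as the map of motif matches shows. Of the 7 genes, 5 had windows to search, and the lowered gene SLC16A1 and CA2 had none.

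**Figure D2:**
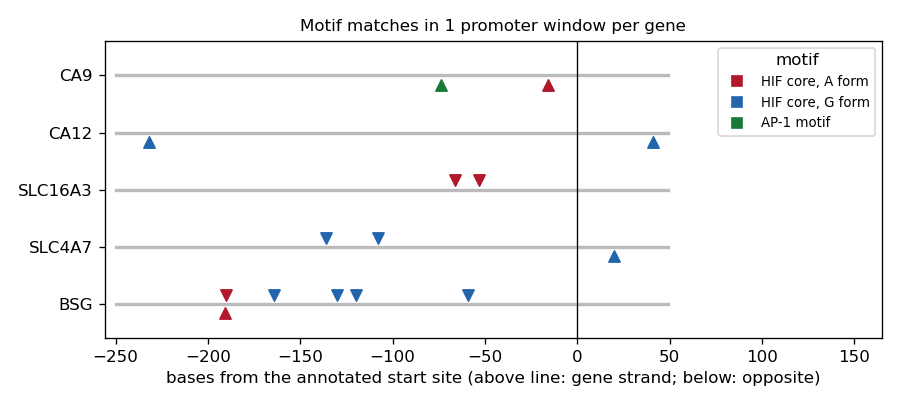
Positions of motif matches in 1 RefSeq promoter window per gene, in bases from the start site at 0; triangles above the line lie on the gene's strand and those below on the opposite strand. Colours are the HIF core with A first (the A form) or G first (the G form) and the AP-1 motif; for genes with several windows the one with the most ACGTG, then GCGTG, is drawn. BSG, which is not past the threshold, has 6 matches to the HIF core in the window drawn and 0 in its other one, and CA9 has 1 in its single window.

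BSG, the partner of both transporters, lay close to 0. The authors' deposited table lists it at 3346 normalized counts on average and -0.02 on the log2 scale (SE 0.10, adjusted p = 0.913), on chromosome 19 (571277 to 583493, plus strand). The approximate 95% interval, from -0.23 to 0.18, leaves room for a small change either way, and the sign turned when all values were shifted to a median of 0. The related partner gene EMB, which encodes embigin, was lower (-0.59, SE 0.45, adjusted p = 0.046) at a mean of 34.9 in the authors' deposited table. NPTN, which encodes neuroplastin, had -0.21 (SE 0.11, adjusted p = 0.105) at a mean of 858 in the authors' deposited table.

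SLC4A7 encodes an electroneutral sodium-bicarbonate cotransporter that brings base into the cell. It lies on chromosome 3 (27372721 to 27484420, minus strand) and stood at 0.10 on the log2 scale (SE 0.11, adjusted p = 0.547), with 683 normalized counts on average, in the authors' deposited table. Its approximate 95% interval ran from -0.12 to 0.31. Among the other 14 bicarbonate transporter genes of the list, the anion exchanger gene SLC4A2 was higher (0.32, SE 0.11, adjusted p = 0.00662) at a mean of 1537, and the other 13 were not past the threshold, per the authors' deposited table.

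CA2 could hardly be assessed. At a mean of 9.18 normalized counts, close to the lowest mean of 7.74 in the authors' deposited table, it stood at 0.05 on the log2 scale (SE 0.31, adjusted p = 0.799). The approximate 95% interval spans -0.56 to 0.66, so a change of a size like that of SLC16A3 was not detectable at this level. CA2 lies on chromosome 8 (85463852 to 85481493, plus strand) beside CA3, a muscle enzyme gene, which had 0.10 (SE 0.31) at a mean of 11.9 in the authors' deposited table. The nearest gene with a row on its other side, 505829 bases away, is ATP6V0D2, which was lower (-1.34, SE 0.76, adjusted p = 0.00329) at a mean of 20.6 in the authors' deposited table.

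Levels were set side by side per kb of exonic length (union of GENCODE 29 exons), as mean normalized counts over both groups of the authors' deposited table. On that scale BSG had a level of 881 per kb, SLC16A3 297 and SLC4A7 71.1, followed by CA9 at 15.0, CA12 at 14.4, SLC16A1 at 12.5 and CA2 at 4.32, from means of the authors' deposited table. The first 3 and the last kept their places with the longest coding transcript as the length, while CA9 and CA12 changed places (15.5 for CA9 and 16.5 for CA12). Without values per library no spread can be put on these levels, and CA9, CA12 and SLC16A1 are not ordered among themselves. The 3 genes past the threshold were thus all in the lower range of this group, as the plot against all genes shows.

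**Figure D3:**
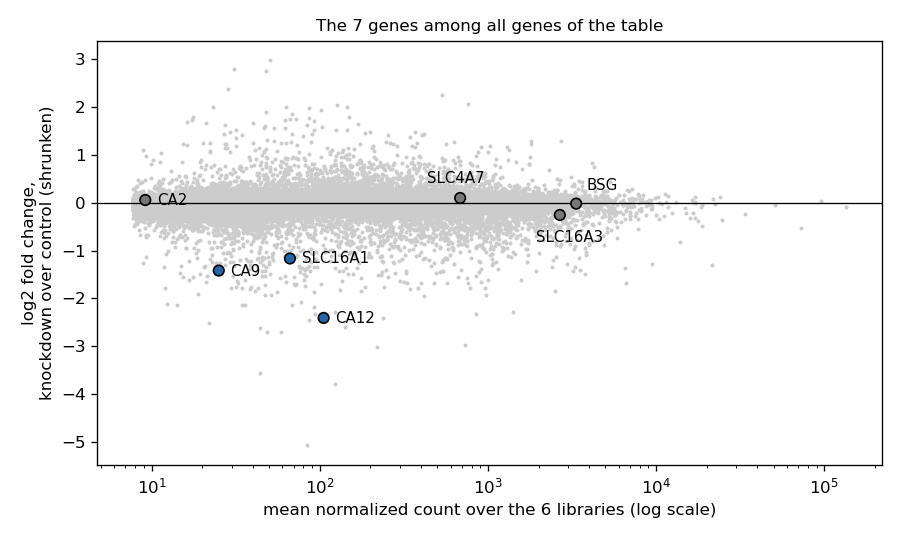
Each gene of the authors' deposited table by mean normalized count over the 6 libraries (x axis, log scale) and shrunken log2 fold change of knockdown over control (y axis); the 7 genes are outlined, blue where lower at an adjusted p under 0.05. CA12, CA9 and SLC16A1 lie at means of 105, 25.1 and 66.5, and BSG and SLC16A3, at 3346 and 2676, lie near 0.

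Genes that define other cell types give a scale for these low levels. Those of 8 genes of blood and vessel cells ran from 4.41 to 8.29 mean normalized counts per kb, with none past the threshold, from the authors' deposited table. CA2 (4.32) lay below that range, and CA9 (15.0), CA12 (14.4) and SLC16A1 (12.5) lay above it, on the same scale of both groups pooled. The normalized counts derived for knockdown cells are lower than the pooled means, 13.7 against 25.1 for CA9, 33.5 against 105 for CA12 and 41.0 against 66.5 for SLC16A1. Divided by the exonic lengths (1670 bases for CA9, 7313 for CA12 and 5312 for SLC16A1), these derived knockdown values all fall within that range. The range itself is of both groups pooled, and no spread can be put on the derived values. Of 8 red cell genes, the lineage richest in carbonic anhydrase, 3 have a row, at levels from 4.28 to 9.65 per kb, none past the threshold, per the authors' deposited table (SLC4A1 at -0.29, adjusted p = 0.196, and ALAS2 at 0.16, adjusted p = 0.444). Of 6 osteoclast genes, a lineage known for CA2, 3 were lower, ATP6V0D2 (also a proton pump gene), ACP5 (-1.08, SE 0.71, adjusted p = 0.00831) and DCSTAMP (-0.45, SE 0.76, adjusted p = 0.0276), with levels of the list from 4.20 to 21.6 per kb in the authors' deposited table. The 6 genes listed as known to be abundant in MDA-MB-231 had levels from 848 to 2207 per kb in the authors' deposited table. The 9 luminal genes ran from 1.60 to 774 per kb, so the 2 lists are not set apart by level throughout. The receptor genes ESR1 and PGR, which the line lacks, were at 1.60 and 3.26 per kb, but KRT8 and KRT18 were at 527 and 774. Among the 6 genes listed for MDA-MB-231, 4 were lower, CAV1 (-1.68), MSN (-0.62), VIM (-0.34) and CD44 (-0.26), in the authors' deposited table. Of 9 luminal genes MLPH (-1.25) and SPDEF (-0.73, SE 0.73) were lower and CDH1 (1.06, SE 0.39) was higher in the authors' deposited table. Over all genes 7.93% were lower and 4.62% were higher. The lower share was 3.94% among genes within 2-fold of CA9's mean and 17.6% among those within 2-fold of BSG's. The 3 lowered osteoclast genes did not pass a Wald test of the change over its SE. The marker lists are short, and nothing about a cell type is read from their counts. In bulk RNA, fewer cells of a kind and less RNA per cell cannot be told apart, and the part of other cell types in the values of CA9 and CA12 was not tested. The targeted gene UBE3D was lower by a log2 value of -0.80 (SE 0.37, adjusted p = 0.00632, mean 36.7) in the authors' deposited table, a call lost in the Wald test (adjusted p = 0.295).

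Of the genes around the 7 members, 18 overlapped one or were its nearest neighbour with a row, and 2 of these were lower and none was higher in the authors' deposited table. Over all genes 7.93% were lower and 4.62% were higher, and nothing is read from a count this small. The 2 lower neighbours were ATP6V0D2 and the tropomyosin gene TPM2, which ends 832 bases past CA9 on the opposite strand (-0.62, SE 0.30, adjusted p = 0.0129 in the authors' deposited table). The neighbours of CA12, APH1B (-0.20, adjusted p = 0.246) and USP3 (-0.06, adjusted p = 0.718), did not pass the threshold in the authors' deposited table, and neither did LINC01356 and LRIG2 beside SLC16A1 (-0.24 and -0.02). The remaining neighbours, CCDC107 of CA9, CCDC57 and CD7 of SLC16A3, NEK10 and EOMES of SLC4A7, and GZMM and HCN2 of BSG, had log2 fold changes from -0.48 to 0.20 in the authors' deposited table. Among the 3' untranslated regions of the 7 genes, that of SLC16A1 holds the word GATTGAA, once, and the others do not. This word is in 24.8% of the 1484 lowered genes with such a region and in 9.50% of all 16171, counted with the calls of the authors' deposited table. The lowered genes include SLC16A1 itself, so this share is a description. Of the 27 lower genes of the 10 lists given below, 2 hold GATTGAA (7.41%). A second word searched, CTTATCT, is in 0 of the 7 genes, 22.2% of those 27 and 10.9% of all 16171. The part of GATTGAA in the change of SLC16A1 was not tested.

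Other routes of lactate and proton transport held calls in both directions. Over all genes 7.93% were lower and 4.62% were higher, and nothing is read from the counts of these short lists. Among the 12 other SLC16 genes, 2 were lower and 1 was higher in the authors' deposited table. SLC16A7, which encodes the high-affinity transporter MCT2, had -0.44 (SE 0.19, adjusted p = 0.0113) at a mean of 131 in the authors' deposited table. SLC16A8, known from the retinal pigment epithelium, was higher (1.22, SE 0.58, adjusted p = 0.00302) at a mean of 15.3 in the authors' deposited table. Of 13 sodium-proton exchanger genes 2 were lower and none was higher in the authors' deposited table. SLC9A7, whose product works in the Golgi, had -1.24 (SE 0.11, adjusted p = 3.66e-30) at a mean of 1716 in the authors' deposited table. Genes of the vacuolar proton pump went both ways, with 5 of 24 higher and 3 lower in the authors' deposited table. A Wald test of the change over its SE left 1 pump gene higher and 1 lower, and none of the 12 other SLC16 genes. The membrane subunit gene ATP6V0E2 (0.81, SE 0.14) and the stalk subunit gene ATP6V1G1 (0.57, SE 0.22) were higher, and the accessory gene ATP6AP2 (-0.37, SE 0.12) and ATP6V0D2 were lower in the authors' deposited table. Of 11 other channels, pumps and acid sensors, 1 was lower and 1 was higher in the authors' deposited table. The acid-sensing channel gene ASIC3 was the higher one (0.60, SE 0.38, adjusted p = 0.0323) in the authors' deposited table. The plot of lists sets these groups side by side.

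**Figure D4:**
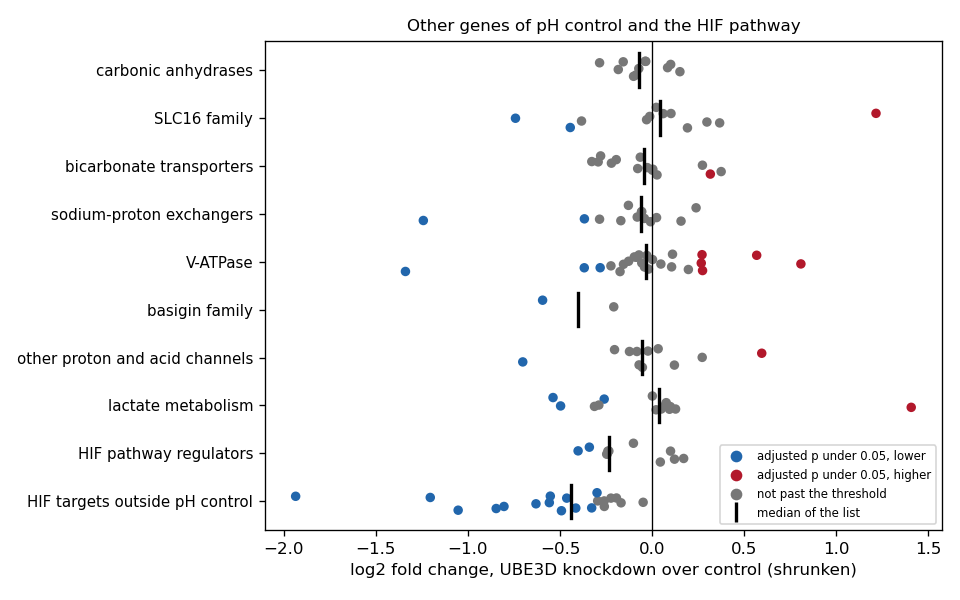
Shrunken log2 fold change of knockdown over control for each gene of 10 lists, without the 7 members, from the authors' deposited table; points are genes, coloured by the adjusted p threshold of 0.05, and black bars are list medians. HIF targets lie to the left of 0 (median -0.44), carbonic anhydrases and bicarbonate transporters lie about it (-0.07 and -0.05), and proton pump genes are on both sides.

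On the supply side of lactate, 3 of 14 genes were lower and 1 was higher in the authors' deposited table. The pyruvate dehydrogenase kinase genes PDK1 (-0.50, SE 0.13) and PDK3 (-0.26, SE 0.11), whose products hold pyruvate back from the mitochondrion's oxidation, were lower, and so was the opposing phosphatase gene PDP1 (-0.54, SE 0.15), per the authors' deposited table. MPC2, a subunit of the mitochondrial pyruvate carrier, was higher by 1.41 (SE 0.11, adjusted p = 1.52e-35) at a mean of 407 in the authors' deposited table. Of 11 genes of the HIF pathway itself, VHL (-0.40, SE 0.18, adjusted p = 0.0195) and the prolyl hydroxylase gene EGLN1 (-0.34, SE 0.15, adjusted p = 0.0227), both of which act to remove HIF, were lower in the authors' deposited table. Of 20 HIF targets outside acid handling 13 were lower and none was higher, with DDIT4 (-1.94), LOX (-1.20), NDRG1 (-1.05) and HK2 (-0.85) named by smallest p, and a median of -0.44 in the authors' deposited table. These lists were drawn up with earlier results of these data known, so the count of HIF targets is no independent support for CA9. Over the 10 lists together, without the 7 members, 27 of 132 genes were lower (20.5%) and 9 were higher (6.82%) in the authors' deposited table, 13 of the 27 being HIF targets. Over all genes of the authors' deposited table the shares were 7.93% lower and 4.62% higher, and the lower share varied with the mean count, being 3.94% among genes within 2-fold of CA9's mean, 14.9% near that of SLC4A7 and 17.3% near that of SLC16A3. The lists were not matched on mean count, so nothing particular to them is read from their share. A Wald test of the change over its SE left 15 of the 27, 10 of them HIF targets, and 2 of the 9. By that test the genes of these lists named above that no longer passed, members aside, were SLC16A7, SLC16A8, SLC4A2, ATP6V0D2, ATP6V1G1, EMB, ASIC3, PDK3, VHL and EGLN1. Among the cell type markers they were ACP5, DCSTAMP, SPDEF, CDH1, VIM and CD44, besides ATP6V0D2. The neighbour TPM2 did not pass either, its change being smaller relative to its SE than that of CA9.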

How the data were processed

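Libraries (3 UBE3D knockdown, 3 control) were made from rRNA-depleted total RNA by random priming and read as stranded 75 bp pairs, per the labels' protocols. Per the submitters' processing notes, cutadapt 1.8.1, STAR 2.5.2b, DESeq2 and hg38 were used; the counting tool, annotation and strand setting are not stated in the sources used here. The deposited tables hold 1 comparison: a mean normalized count over the libraries (a signal by the authors), a log2 fold change, its SE, and p-values raw and adjusted, per the file headers. The authors' log2 fold changes are shrunken: over their SE they fall below the normal quantile of the deposited p in all 20112 rows where it is above 0. The SE column is on the log2 scale and the threshold column is a flag by the authors, not used here.

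Calls used the deposited adjusted p under 0.05; no test of a list was run. The members and lists were chosen with earlier results of these data known. Named were the members, UBE3D, up to 4 genes past the threshold per list by p (up to 2 where none passed), neighbours, and 5 genes most like CA12; remaining carbonic anhydrases, list members given only by value, ESR1 and PGR were named after values were seen. Some genes that the rule takes are not reported here. Approximate 95% intervals are the log2 fold change plus or minus the normal quantile times SE. Group levels were derived from the mean and the fold for groups of equal size. GENCODE 29 (GRCh38) gave positions, exon lengths and 3' untranslated regions of at least 50 bases (18470 of 20115 symbols matched); promoters are RefSeq's. Alternatives were other thresholds, a minimum mean of 100, a minimum fold of 1.5, a Wald test of the deposited change over SE with Benjamini-Hochberg adjustment, and shifts of the median to 0. This Wald step was tested on simulated data. Python 3.11.15, numpy 2.4.6, pandas 2.3.3, scipy 1.17.1 and matplotlib 3.10.9 were used.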

Additional observations from a re-analysis of the deposited data

How the results depend on the processing

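Of the 7 genes, 3 were lower at an adjusted p under 0.01 and 4 under 0.1, where SLC16A3 joined. A minimum fold of 1.5 left 3, and none was higher under any alternative run. The Wald test left 2, CA12 and SLC16A1, with and without a shift to a median of 0; CA9 then had an adjusted p of 0.239, 0.257 after that shift and 0.27 after a shift over genes of similar mean. A Wald test of shrunken values can only weaken calls, since each lies below the quantile of its p. Adjusting over genes with a mean of at least 100 also left 2, CA12 and SLC16A3, because CA9 and SLC16A1 lie below that mean. The sign of BSG turned, to 0.0040 with the shift over all genes and 0.031 with that over genes of similar mean. UBE3D did not pass the Wald test with either shift (adjusted p = 0.33 and 0.347). Of the 132 pathway genes, 9 were higher in the deposited calls, 5 at an adjusted p under 0.01, 2 by the Wald test, 3 by the Wald test after the shift and 4 at a minimum fold of 1.5. The 27 lower ones became 15 by the Wald test, 14 after the shift and 11 at a minimum fold of 1.5. Of 120 counts by single list, direction and alternative, 84 stayed within 1.5 times and 36 moved further. Many of the 84 were 0 in the deposited calls and stayed 0, as for the carbonic anhydrases in both directions. A count of 0 cannot fall under a stricter setting, so the 84 are no measure of stability. Rebuilding unshrunken folds was not run, since the prior width implied by the deposited values differed between genes (5th to 95th percentile 0.18 to 0.58). No paired analysis was possible because the tables hold no value per library, and leaving out single libraries was not possible for the same reason. Depth per library is unknown.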
